A study of Mus musculus with 8 samples.

Results

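H3K27ac, the acetylated form of lysine 27 on histone H3 found at promoters and enhancers in use, was examined at the Toll-like receptors and their partners Cd14 and Myd88 in microglia with and without the gene Grn. The members were the 10 genes Tlr1, Tlr2, Tlr3, Tlr4, Tlr6, Tlr7, Tlr9, Tlr13, Cd14 and Myd88. All regions that the table pairs with 1 of these symbols were taken, which gave 121 of 129304 regions and 10 of 18707 symbols, from 4 regions for Myd88 to 27 for Tlr2. The product of Grn, progranulin, is secreted and taken up into lysosomes. Both genotypes, wild type (WT) and Grn knockout (GrnKO), were C57BL/6 mice aged 2 years, and the type or reach of the knockout allele is not given in the sources used here. Brain nuclei were sorted as PU.1+, OLIG2- and NEUN-, where PU.1 is a transcription factor of myeloid cells. Nuclei of 2 mice were pooled for a replicate, with 1 H3K27ac library and 1 input library (chromatin without immunoprecipitation), and each genotype had 2 replicates.

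Toll-like receptors are sensors of microbial and cellular molecules. One group, here Tlr1, Tlr2, Tlr4 and Tlr6, sits in the cell surface membrane and binds lipids and lipoproteins. The other, here Tlr3, Tlr7, Tlr9 and Tlr13, sits in endosomes and lysosomes, binds nucleic acids and needs lysosomal proteases for activation. Cd14 is a surface protein that hands lipopolysaccharide to Tlr4 and helps other receptors, and Myd88 is the adaptor through which all of these receptors but Tlr3 signal to NF-kappaB. In the brain, microglia are the main cells that carry them.

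The H3K27ac libraries held 15491642.5 to 20030832 tags and the inputs 4078179 to 14415969. Values are scaled tags, which are tags in an 800 bp region at a library total of 10000000, further divided by a trimmed mean of M values (TMM) factor for the H3K27ac libraries. WT replicate 1 stood apart. Its tags summed over the listed regions came to 49.4% of its total, against 63.3% for WT replicate 2. For GrnKO replicate 1 this sum was 64.8%, and for GrnKO replicate 2 it was 65.7%. Tags in overlapping regions count more than once in these sums, so a smaller part of the tags lay inside the regions. The Grn promoter regions summed to 1083 and 1076 scaled tags in WT against 7.34 and 6.49 in GrnKO, before TMM, so the libraries matched their genotype labels there. All 10 microglial marker genes had a region at the start site, with summed levels of 9292 and 10299 in WT against 7995 and 8003 in GrnKO, and 6 of the 10 passed the gene test as lower, or 0 with the authors' scaling. Start-site sums were 587 to 720 for border macrophage markers (6 of 8 with a start region) and 0 to 20.4 for monocytes and neutrophils (1 of 9, at 0 and 5.24 in WT against 20.4 and 18.7 in GrnKO). They were 0 to 2.74 for lymphocytes (1 of 7) and 0 to 3.91 for neurons (2 of 7, both under 10 tags throughout). Sums were 190 to 223 for astrocytes (4 of 7), 66.3 to 107 for oligodendrocytes (5 of 7), and 173 and 190 in WT against 350 and 382 in GrnKO for endothelial cells (2 of 6). By the gene test 1 of 8 border macrophage, 1 of 3 monocyte and neutrophil, 1 of 2 lymphocyte, 1 of 4 oligodendrocyte and 1 of 4 endothelial markers tested were higher. In the same test 1 monocyte and neutrophil, 1 oligodendrocyte and 1 of 3 neuron markers were lower, and 0 of 5 astrocyte markers were called. Over all regions, the lymphocyte markers summed to 261 and 219 in WT against 655 and 484 in GrnKO. Also higher were border macrophage (3637 and 3592 against 4081 and 4025.5), oligodendrocyte (2014 and 2096 against 2542.5 and 2686.5) and endothelial sums (1513 and 1689.5 against 2043 and 2261). Lower were microglial (57225 and 60772 against 48005 and 48676) and monocyte and neutrophil sums (599 and 594 against 481 and 387). Astrocyte (3526 and 3458 against 3230 and 3279) and neuron sums (219 and 272 against 182 and 150) were lower too. The part of these shifts in the results was not tested, and in a bulk assay fewer cells of a type and less acetylation per cell cannot be told apart.

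Summed over all regions of a gene, H3K27ac was lower in GrnKO at Cd14 and Tlr3 and higher at Tlr2 and Tlr13. These 4 of 10 genes passed the test (limma on log2 values, Benjamini-Hochberg adjusted p under 0.05 over 15380 genes), 2 in each direction. Over all genes tested 14.5% were called, 8.59% higher and 5.88% lower. The 2 GrnKO values lay above both WT values for 2 members and below them for 4, against 25.4% and 29.4% of all genes. The median log2 change was -0.043 over the members and -0.046 over all genes tested. By region, 109 of the 121 passed the filter on low values, and 15 were called (9.71% of all tested regions were). Of these 8 were higher (7.34% of 109) and 7 lower (6.42%), where 6.80% and 2.92% of all tested regions were. The called regions belong to 5 genes and form 9 separate stretches, because 38 member regions overlap their left neighbour and share tags. The 2 GrnKO values lay on 1 side of both WT values in 66 of the 109, which is 60.6% against 52.7% of all tested regions. Counts of this kind are given per gene below. For all regions the share was not computed per direction or with the authors' scaling.

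**Figure D1:**
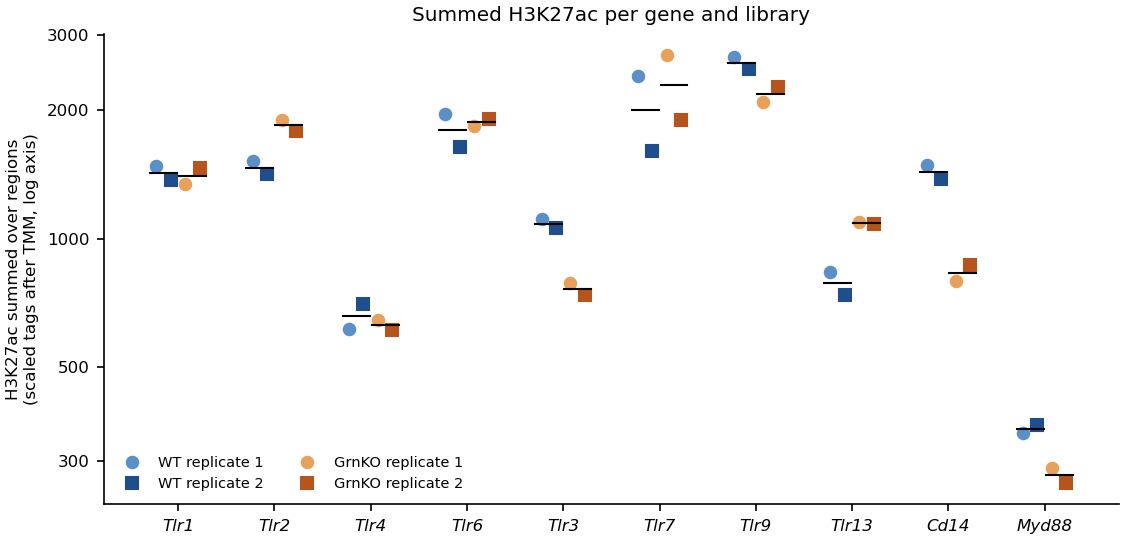
H3K27ac summed over all regions of each member (scaled tags after TMM, log axis), with circles for replicate 1, squares for replicate 2, blue for WT, orange for GrnKO and a bar at each mean of 2 libraries. The genotypes separate at Tlr2 and Tlr13 (GrnKO above) and at Tlr3, Tlr9, Cd14 and Myd88 (GrnKO below), and at Tlr7 replicate 1 lies above replicate 2 in both genotypes.

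The call on the gene sum of Cd14 held when any library was left out. The gene-sum calls at Tlr2, Tlr3 and Tlr13 held without either WT library and were lost without either GrnKO library, where the calls over all genes fell from 2225 to 774 and 1043. With the authors' scaling, by library totals and no TMM factor, which moves the median of all genes by 0.22 to 0.18, Tlr13 was the member called higher and 0 were called lower, and the log2 changes of Tlr2, Tlr3 and Cd14 were 0.56, -0.28 and -0.56 (limma adjusted p = 0.136, 0.552 and 0.117). Before TMM the genotypes still separated at these 4 genes, and at Tlr9 and Myd88 they overlapped. At Tlr1, Tlr6 and Tlr7, which overlapped after TMM, both GrnKO sums then lay above both WT sums. Under that scaling 10.6% of all genes were called higher and 1.08% lower, and 10 member regions were higher and 3 lower (8.15% and 0.412% of all regions). Without WT replicate 1, 3 member genes were higher (12.1% of all genes) and 2 lower (8.97%), and 21 member regions were higher (10.6% of all) and 8 lower (5.49%). Leaving out WT replicate 2 gave 9 higher and 15 lower member regions (11.9% and 5.92% of all), so the count by region rests on which WT library is used. Most of the 15 called regions lost their call without either GrnKO library, where the number of calls over all regions also fell steeply. The call at Cd14 (2371 bp) was lost without WT replicate 1 and that at Tlr13 (-7166 bp) without WT replicate 2. The log2 changes of all 15 kept their sign whichever library was left out.

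Among the surface receptors, Tlr2, the partner of Tlr1 and Tlr6 in binding bacterial lipoproteins, rose. Its 27 regions summed to 1519.7 and 1414.5 scaled tags in WT against 1902 and 1784.5 in GrnKO. Both GrnKO pools lay above both WT pools, by 1.26-fold (log2 change 0.33, SE 0.095, 95% interval 0.12 to 0.53, limma adjusted p = 0.0338). Counting only regions that do not overlap, the change was 0.29 and its adjusted p was 0.06. Of 22 tested regions, 18 had a positive change and 13 had both GrnKO values above both WT values. The 2 regions at the start site, chr3:83841283-83842083 and a neighbour in intron 1 of 2 (chr3:83840801-83841601), did not pass. The first held 134 and 144 scaled tags in WT against 166 and 146 in GrnKO, and the second, the strongest start region of the gene, 185 and 164 against 223 and 209. The region with the highest mean lay upstream at -21548 bp (chr3:83862756-83863556) and held 192 and 228 in WT against 229 and 241 in GrnKO (log2 change 0.16, limma adjusted p = 0.602).

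The Tlr2 regions past the threshold lay upstream, between genes. At -3404 bp (chr3:83844612-83845412) the values were 85.3 and 43.2 in WT against 148 and 125 in GrnKO (log2 change 1.15, SE 0.28, limma adjusted p = 0.0126). Without WT replicate 2 the change was 0.67. The overlapping region at -3804 bp (chr3:83845012-83845812) held 43.8 and 35.1 against 105.5 and 78.7 (1.20, SE 0.28, limma adjusted p = 0.0104). Both GrnKO pools were above both WT pools at this stretch, and WT replicate 2 was the lower WT library. The third, at -43659 bp (chr3:83884867-83885667), rose from 4.30 and 8.90 scaled tags to 30.3 and 32.8 (2.16, SE 0.53, limma adjusted p = 0.0141). This region was weak in both genotypes and lay apart from the others. At +29495 bp, downstream of the gene, the sign was opposite, with 124 and 135 in WT against 96.5 and 78.2 in GrnKO (-0.57, limma adjusted p = 0.109). That region was chosen after its values were seen. The 250 bases before the start of Tlr2, which the start-site region covers, are shown because no start region passed while a stretch just upstream did (RefSeq, GRCm38.p6, minus strand, chr3:83841609-83841858). They held no exact match to the 8 motif patterns searched, which are spelled out with Tlr3, and so have no capitals. The stretch gggaattccc in them resembles the NF-kappaB pattern but does not match it letter for letter, and near matches were not searched.
Tlr2: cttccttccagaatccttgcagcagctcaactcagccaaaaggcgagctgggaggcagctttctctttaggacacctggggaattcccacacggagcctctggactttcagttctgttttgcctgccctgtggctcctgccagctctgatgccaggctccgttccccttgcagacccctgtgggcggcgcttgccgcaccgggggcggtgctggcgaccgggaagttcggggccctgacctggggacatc

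Tlr6 and Tlr1 are neighbours on chromosome 5 and their products each pair with that of Tlr2. Tlr6 summed to 1962 and 1636 scaled tags in WT against 1840.2 and 1909.7 in GrnKO, and Tlr1 to 1479 and 1371 against 1346 and 1462. After TMM the genotypes overlapped at both genes, with log2 changes of 0.065 (95% interval -0.16 to 0.29, limma adjusted p = 0.751) and -0.022 (-0.24 to 0.19, limma adjusted p = 0.924). With the authors' scaling GrnKO lay above WT at both. Tlr6 then held 1620 and 1695 in WT against 1990 and 2066 in GrnKO (0.29, limma adjusted p = 0.556). Tlr1 held 1221 and 1420 against 1455 and 1582 (limma adjusted p = 0.703). The sign of the Tlr1 change turned with the authors' scaling (0.20) and that of Tlr6 without WT replicate 2 (-0.066, against 0.20 without WT replicate 1), so no direction is given for either.

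After TMM the sign differed along the Tlr6 locus. The 3 most upstream regions, at -1227, -1620 and -1916 bp, had GrnKO above WT, and those from the start into the intron had GrnKO below or overlapping. At -1916 bp (chr5:64961612-64962412) the values were 147 and 82.0 in WT against 175 and 191 in GrnKO (log2 change 0.73, limma adjusted p = 0.056). At -1620 bp they were 201 and 134 against 234 and 263 (0.59, limma adjusted p = 0.0594). Neither passed the threshold. The start-site region at -18 bp held 378 and 315 in WT against 294 and 306 in GrnKO (-0.20), and that at 378 bp in the intron, the strongest of the gene, 368 and 348 against 322 and 289 (-0.23). The other regions within 1000 bp, at 793 and -883 bp, had changes of -0.23 and 0.045. None of the 4 start regions passed. Under the authors' scaling the region at -18 bp held 312 and 326 in WT against 317 and 331 in GrnKO, and of the 8 regions 5 had GrnKO above WT and 0 below, against 3 and 3 after TMM.

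At Tlr1 0 of 12 tested regions were called. The genotypes overlapped at 2 of the 3 start regions, which held 64.95 to 162 scaled tags in WT and 68.5 to 114 in GrnKO, with changes of 0.042 at -265 bp, -0.30 at -21 bp and -0.38 at -837 bp. The highest mean lay in a distal cluster at +48580 bp (chr5:64883719-64884519), with 280.0 and 332 in WT against 306 and 326 in GrnKO. The genotypes overlapped there (0.052, limma adjusted p = 0.876).

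Tlr4, the receptor for lipopolysaccharide that Cd14 serves, showed no called region among 10 tested and no called sum. Its sums were 614 and 701 scaled tags in WT against 645 and 609 in GrnKO, which overlap (log2 change -0.065, 95% interval -0.34 to 0.21, limma adjusted p = 0.803). The first-exon region at 111 bp (chr4:66827262-66828062), the strongest of the gene, held 212 and 262 in WT against 211 and 221 in GrnKO, and the intron region at 981 bp 201 and 212 against 211 and 189. Of the tested Tlr4 regions 0 had both GrnKO values above both WT values and 3 had both below, at -10712, 14213 and 15870 bp (-0.70, -1.63 and -1.19), and with the authors' scaling 1 had both above and 2 both below. Whether the change of Tlr4 differs from that of Cd14 was not tested. Its log2 change was 0.16 with the authors' scaling and 0.36 after subtraction of input, so its sign is not stable. A single Tlr4 region also held the largest input value of all members, 108 scaled tags in WT input 1.

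**Figure D2:**
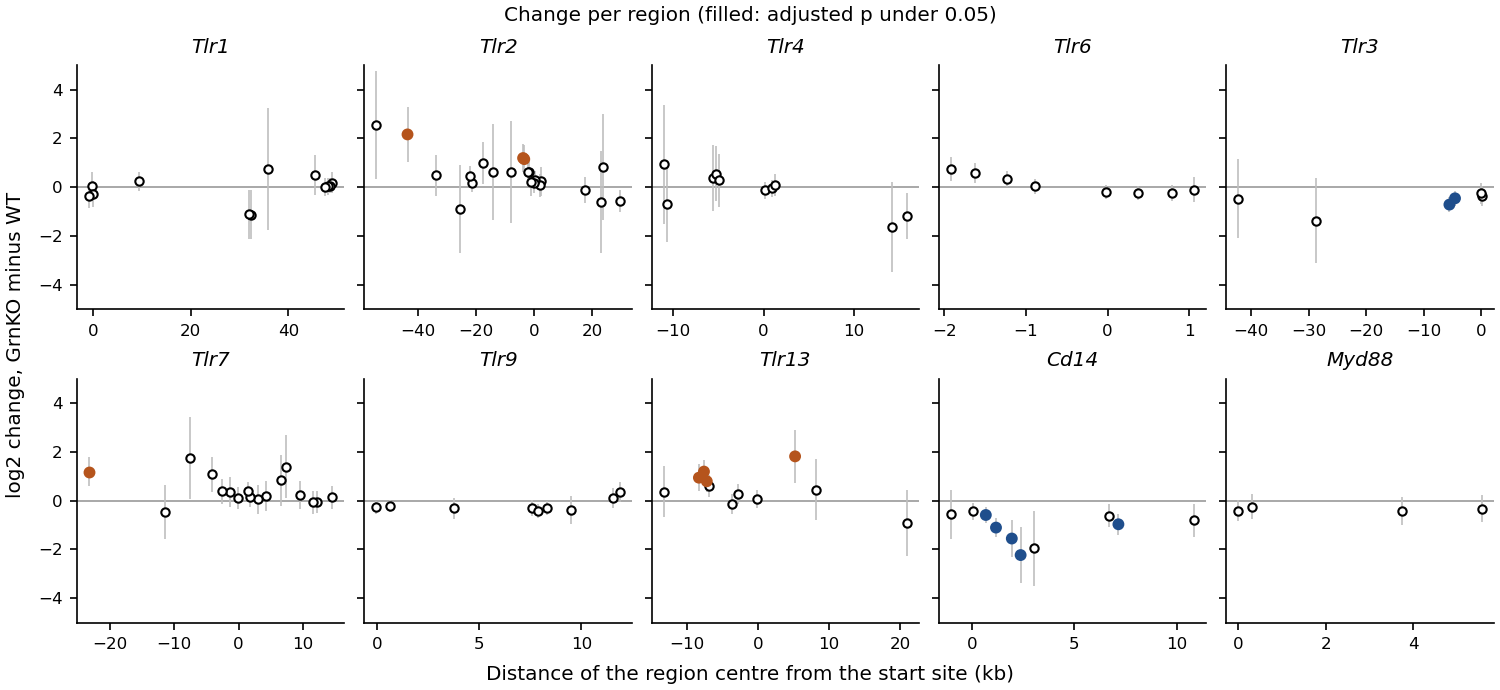
Log2 change (GrnKO minus WT) of each tested region of the 10 members against the distance of its centre from the start site in kb, with 95% intervals and with filled points past the adjusted threshold. Filled points are orange (higher) at Tlr2, Tlr7 and Tlr13 and blue (lower) at Tlr3 and Cd14, and 14 of the 15 lie more than 1000 bp from the start.

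Among the endosomal receptors, Tlr3, the receptor for double-stranded RNA that signals through the adaptor TRIF, fell. Its 7 regions summed to 1113 and 1056.5 scaled tags in WT against 787 and 739 in GrnKO, with both GrnKO pools below both WT pools (0.70-fold, log2 change -0.51, SE 0.11, 95% interval -0.74 to -0.27, limma adjusted p = 0.00718). All 6 tested regions had a negative change. The region at -5520 bp (chr8:45415739-45416539) fell from 393 and 368 to 218 and 247 (-0.71, SE 0.15, limma adjusted p = 0.00401). The one at -4548 bp (chr8:45414767-45415567), which had the highest mean of the gene, fell from 364 and 365 to 279.7 and 252 (-0.46, SE 0.14, limma adjusted p = 0.0482). Both calls were lost with the authors' scaling, with changes of -0.49 and -0.23 (limma adjusted p = 0.297 and 0.697). The call at -4548 bp was also lost in edgeR's quasi-likelihood test (adjusted p = 0.0549) and without the filter on low values (0.104). The 2 start regions held less than these upstream ones: 174 and 159.5 in WT against 143 and 116 in GrnKO at 78 bp, and 154 and 143 against 136 and 113 at -31 bp. Their changes of -0.37 and -0.26 did not pass (limma adjusted p = 0.259 and 0.465).

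The 250 bases before the Tlr3 start are shown because both start regions cover them while the called regions lie further upstream (RefSeq, GRCm38.p6, minus strand, chr8:45410381-45410630). Promoters were searched on both strands for 8 short motifs: PU.1 (GAGGAA, in 23.3% of the 32817 RefSeq promoters), AP-1 (TGANTCA, 6.75%), NF-kappaB (GGGA, any 2 bases, TTCC, 1.21%), the interferon-stimulated response element (GAAA, any 2 bases, GAAA, 2.97%), the ETS-IRF element (GGAA, any 2 bases, GAAA, 2.30%), C/EBP (TTGCNNAA, 9.57%), the E-box of the MITF and TFE family (CACGTG, 6.02%) and the TATA box (TATAAA, 12.4%). The PU.1 letters can lie inside longer ETS matches, and an A-rich stretch can match several of these patterns at once. In Tlr3 the capitals mark an NF-kappaB match 211 to 202 bases before the start and a C/EBP match 95 to 88 bases before it. A match is a description of letters and not a bound site.
Tlr3: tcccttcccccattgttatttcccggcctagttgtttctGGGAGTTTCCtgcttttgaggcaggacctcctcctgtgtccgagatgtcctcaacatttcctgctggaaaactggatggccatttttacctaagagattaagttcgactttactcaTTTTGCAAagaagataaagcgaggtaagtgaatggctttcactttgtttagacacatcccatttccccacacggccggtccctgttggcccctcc

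Tlr13, a mouse receptor for bacterial ribosomal RNA, rose. Its 11 regions summed to 836 and 736 scaled tags in WT against 1095.5 and 1079 in GrnKO, with both GrnKO pools above both WT pools (1.39-fold, log2 change 0.47, SE 0.11, 95% interval 0.23 to 0.71, limma adjusted p = 0.013). With non-overlapping regions only, the change was 0.32 and the adjusted p 0.0613. Of its 4 called regions, 3 lay in a stretch about 8 kb upstream, between genes. At -7563 bp (chrX:106135312-106136112) the values were 88.4 and 63.1 in WT against 184 and 161 in GrnKO (1.19, SE 0.22, limma adjusted p = 0.00195). At -8271 bp they were 43.8 and 43.7 against 80.3 and 90.2 (0.94, limma adjusted p = 0.030), and at -7166 bp 110 and 76.2 against 157 and 163 (0.80, limma adjusted p = 0.0258). Both of these overlap the region at -7563 bp and share tags with it, and the call at -7166 bp was lost without WT replicate 2 (0.0565). A weak region in intron 2 of 2 at 5218 bp (chrX:106148093-106148893) also rose, from 5.47 and 9.69 to 32.8 and 24.5 (1.82, SE 0.52, limma adjusted p = 0.0344), a call lost without the filter (0.0851).

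The Tlr13 start region at -126 bp, the strongest of the gene, did not differ beyond the spread of its libraries, with 181 and 173 scaled tags in WT against 196 and 175 in GrnKO (0.066, SE 0.17, limma adjusted p = 0.867). Before TMM the genotypes separated there, at 150 and 179 in WT against 212 and 190 in GrnKO. The 250 bases it covers before the start are shown as a part of the locus with overlapping genotypes after TMM (RefSeq, GRCm38.p6, plus strand, chrX:106143025-106143274). The capitals mark the PU.1 core 83 to 78 bases before the start.
Tlr13: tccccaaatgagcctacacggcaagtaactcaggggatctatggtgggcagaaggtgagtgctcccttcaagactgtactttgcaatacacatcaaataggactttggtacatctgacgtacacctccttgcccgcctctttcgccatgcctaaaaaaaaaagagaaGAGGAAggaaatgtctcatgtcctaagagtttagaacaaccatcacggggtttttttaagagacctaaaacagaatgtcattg

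Tlr7, which binds single-stranded RNA, had 1 region called and no called sum. Replicates 1 and 2 summed to 2411 and 1604 scaled tags in WT, against 2695.0 and 1898 in GrnKO. Replicate 1 was thus above replicate 2 in each genotype, and the genotypes overlapped after TMM (log2 change 0.20, SE 0.17, 95% interval -0.17 to 0.57, limma adjusted p = 0.512). With the authors' scaling the sums were 1990 and 1662 in WT against 2914 and 2054 in GrnKO, which separate. The change was then 0.43 (limma adjusted p = 0.321). Of 17 tested regions, 9 then had both GrnKO values above both WT values, against 4 after TMM. Tlr7 lies on the X chromosome. The regions of Xist held 81.7 and 128 scaled tags in the WT and GrnKO replicates 1 and 0 and 5.49 in replicates 2, and start regions of Y-linked genes 5.81 and 0 against 270 and 220 (before TMM). The part of this difference between pools in the Tlr7 values was not tested, and Tlr13, given above, is also on X. Without WT replicate 1 the Tlr7 change was 0.50 (limma adjusted p = 4.09e-06), without WT replicate 2 it was -0.092 and without GrnKO replicate 1 -0.051. Each of these fits leaves the Xist and Y-linked signal unbalanced between genotypes. Between pools alike in that signal GrnKO was above WT, at 2695.0 against 2411 and at 1898 against 1604.

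The called Tlr7 region lay at -23245 bp inside intron 4 of 6 of Prps2, a neighbouring gene of nucleotide synthesis (chrX:167353416-167354216). It held 33.6 and 52.6 scaled tags in WT against 107 and 87.4 in GrnKO (1.18, SE 0.28, limma adjusted p = 0.0122). Here the genotypes separated and the replicates did not. The start region at -12 bp followed the replicates, with 229 and 152 in WT against 255 and 161 in GrnKO (0.12). So did the region with the highest mean, at 1408 bp in intron 2 of 3, with 330 and 239 against 424 and 320.0 (0.39, limma adjusted p = 0.170).

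Tlr9, the receptor for unmethylated CpG DNA, had both GrnKO sums below both WT sums after TMM without passing the threshold. The values were 2663 and 2497 scaled tags in WT against 2089 and 2274 in GrnKO (0.85-fold, log2 change -0.24, SE 0.088, 95% interval -0.43 to -0.053, limma adjusted p = 0.0854). Leaving out 1 library gave an adjusted p of 0.0096 without WT replicate 2 and of 0.119 to 0.593 otherwise. With the authors' scaling the sums were 2198 and 2586 in WT against 2259 and 2460.0 in GrnKO, which overlap, and the change was -0.016 (limma adjusted p = 0.985). Of 9 tested regions 7 had GrnKO below WT in every library after TMM, where 52.7% of all tested regions separated in either direction. With the authors' scaling 2 of the 9 had so, and 0 were called after TMM. The start region at -25 bp held 445 and 446 in WT against 359.5 and 379 in GrnKO (-0.27, limma adjusted p = 0.200). The intron region at 616 bp, the strongest of any member, held 576 and 575 against 475 and 511 (-0.23, limma adjusted p = 0.249). The exceptions were the 2 most downstream regions, in Alas1, the gene of the first enzyme of haem synthesis, with changes of 0.097 and 0.35.

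**Figure D3:**
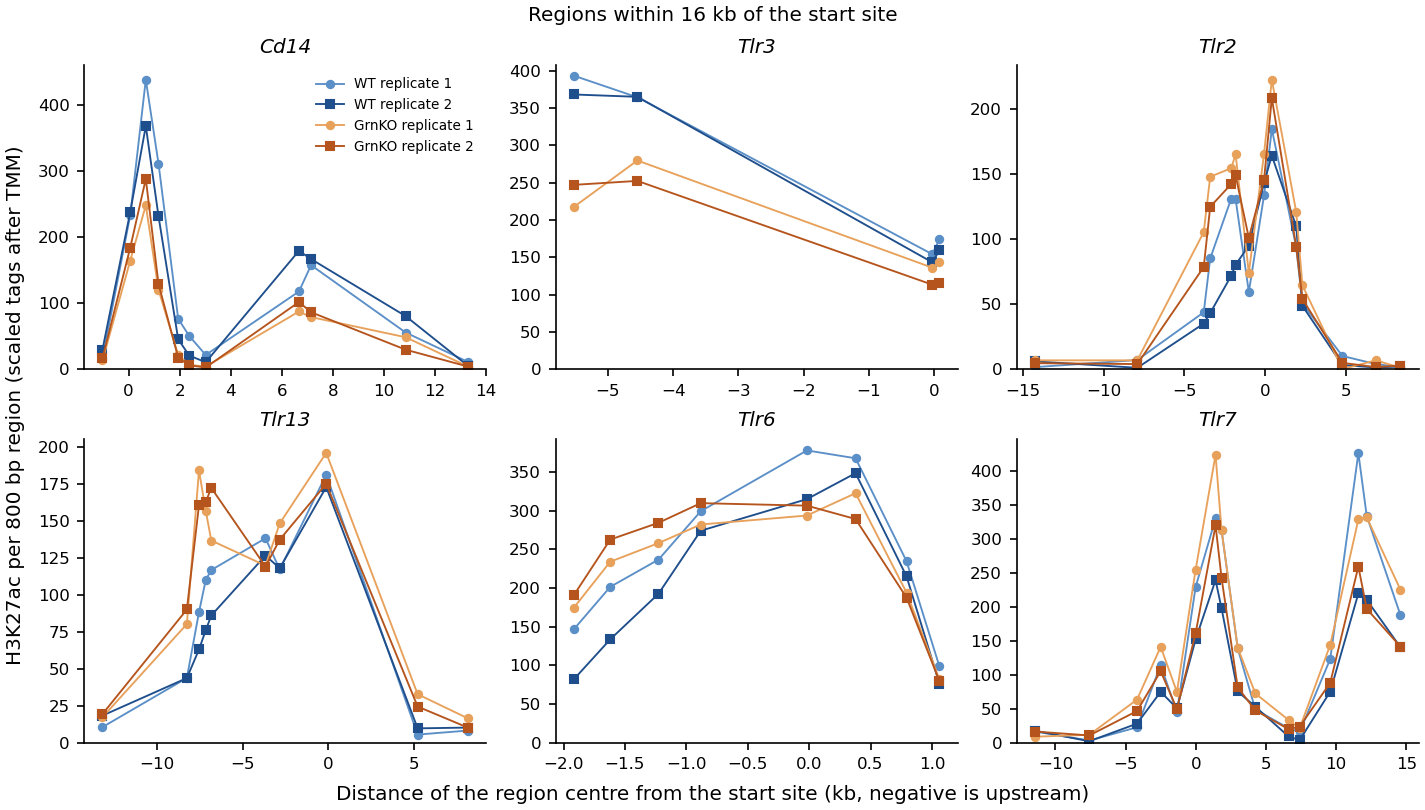
H3K27ac (scaled tags after TMM) in each 800 bp region within 16 kb of the start site, against distance in kb, for Cd14, Tlr3, Tlr2, Tlr13, Tlr6 and Tlr7, with 1 line per library (blue WT, orange GrnKO, circles replicate 1, squares replicate 2). The GrnKO lines run below WT across Cd14, meet WT at the Tlr13 start (181 and 173 against 196 and 175) and lie above WT near -7563 bp, and the Tlr7 lines separate mainly by replicate.

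Cd14 fell, and it had the smallest p of the members. Its 11 regions summed to 1490.4 and 1377 scaled tags in WT against 797 and 866 in GrnKO (0.58-fold, log2 change -0.79, SE 0.11, 95% interval -1.02 to -0.55, limma adjusted p = 0.000326). All 10 tested regions had both GrnKO values below both WT values after TMM, where 52.7% of all tested regions separated in either direction. With the authors' scaling 6 of the 10 had so, and after TMM 5 were called lower. The log2 changes of the 10 ran from -2.23 to -0.44 with a median of -0.89. Since neighbouring regions share tags, these 10 are not separate measurements.

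The strongest Cd14 region lay at 671 bp in exon 2 of 2 (chr18:36725744-36726544) and fell from 439 and 368.5 scaled tags in WT to 248 and 288 in GrnKO (-0.59, SE 0.15, limma adjusted p = 0.0161). It is the only called region of any member within 1000 bp of a start. The start region itself, at 62 bp, held 233 and 238 against 165 and 184 (-0.44, SE 0.17, limma adjusted p = 0.109) and did not pass. Further along the gene the fitted changes were larger, but the start and distal sums did not differ past the threshold (log2 difference 0.50, 95% interval -0.085 to 1.08, limma adjusted p = 0.435). At 1168 bp, also in exon 2, the region fell from 312 and 232 to 120.5 and 129 (-1.10, SE 0.18, limma adjusted p = 0.000814). Near the transcript end, the values fell from 76.3 and 45.3 to 21.5 and 17.5 at 1940 bp (-1.55, limma adjusted p = 0.0109) and from 50.4 and 20.7 to 6.51 and 5.77 at 2371 bp (-2.23, limma adjusted p = 0.0144). The last of these had an adjusted p of 0.0902 without WT replicate 1, the higher of the WT libraries there.

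A separate intergenic stretch downstream also fell. At 7146 bp (chr18:36719269-36720069) the values were 158 and 167 scaled tags in WT against 78.9 and 86.3 in GrnKO (-0.97, SE 0.20, limma adjusted p = 0.00522). The region that overlaps it, at 6670 bp, held 118 and 179 against 87.4 and 102 and did not pass (-0.62, limma adjusted p = 0.0982). The genotypes separated at both regions. With the authors' scaling the calls at 671 and 7146 bp were lost, with changes of -0.36 and -0.74 (limma adjusted p = 0.481 and 0.106).

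Myd88, the shared adaptor, had sums of 351 and 365 scaled tags in WT against 290.2 and 267 in GrnKO. After TMM the GrnKO pools lay below the WT pools, but the change did not pass (log2 change -0.36, SE 0.15, 95% interval -0.69 to -0.031, limma adjusted p = 0.145). With the authors' scaling the genotypes overlapped, at 289.5 and 378 in WT against 314 and 289 in GrnKO, and the change was -0.13 (limma adjusted p = 0.826). The start region at 11 bp, the strongest of its 4 regions, held 122 and 134 in WT against 103 and 89.5 in GrnKO (-0.41, limma adjusted p = 0.249), and the exon 1 region at 316 bp 79.8 and 94.5 against 75.8 and 71.1 (-0.24).

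By level, compared in regions of the same 800 bp width, the members are among genes with strongly acetylated starts. The strongest start region had a mean over the 4 libraries of 534 scaled tags at Tlr9 (the 99.6th percentile of 13959 genes), 336 at Cd14, 332 at Tlr6, 227 at Tlr4, 199 at Tlr7, 195 at Tlr2, 182 at Tlr13, 148 at Tlr3, 114 at Tlr1 and 112 at Myd88 (83.6th). Neighbours in this order overlapped in their libraries, except Tlr9 above Cd14 and Tlr6 above Tlr4.

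Nearly all called member regions were distal, that is more than 1000 bp from the start, but so were 88 of the 109 tested. Most called regions over the table were distal too. Of those 4713 higher and 2005 lower were distal, against 775 and 349 at a start. Of 88 distal member regions tested, 8 were higher and 6 lower (7.99% and 3.40% of all distal regions were), at 1168 to 43659 bp. Of 21 start regions, 0 were higher and 1 was lower (3.57% and 1.61% of all start regions were). The median log2 change was 0.17 over the distal regions and -0.23 over the start regions of the members, against 0.00056 and -0.0062 over all distal and all start regions. These medians were, with the authors' scaling, 0.40 and -0.0027 for the members against 0.22 and 0.21 for all regions.

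To ask whether the change at the start differed from that elsewhere in a gene, the distal sum was subtracted from the start sum on the log2 scale in each library. At Cd14 the start sum changed by -0.53 (95% interval -0.81 to -0.25) and the distal sum by -1.03 (-1.31 to -0.75). At Tlr13 the changes were 0.066 (-0.34 to 0.47) and 0.57 (0.30 to 0.84), and at Tlr3 -0.32 (-0.67 to 0.040) and -0.60 (-0.86 to -0.33). Tlr2 had 0.24 (-0.078 to 0.57) and 0.35 (0.13 to 0.57), and Tlr6 -0.15 (-0.36 to 0.060) and 0.44 (0.10 to 0.78). The distal value was the one further from 0 in 7 of the 10 members, and the start value in Tlr1, Tlr4 and Tlr9. The difference itself did not pass at any of the 10 members: 0 had an unadjusted p under 0.05 in limma, against 13.1% of the 7324 genes with both sums, and 0.0273% of all genes passed after adjustment. It was 0.50 at Cd14 (95% interval -0.085 to 1.08, limma adjusted p = 0.435), -0.50 at Tlr13 (-1.03 to 0.023, limma adjusted p = 0.393) and -0.59 at Tlr6 (-1.32 to 0.13, limma adjusted p = 0.450). These intervals include both no difference and a change of more than 2-fold at each of the 3 genes, so this design does not show whether start and distal regions differed.

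**Figure D4:**
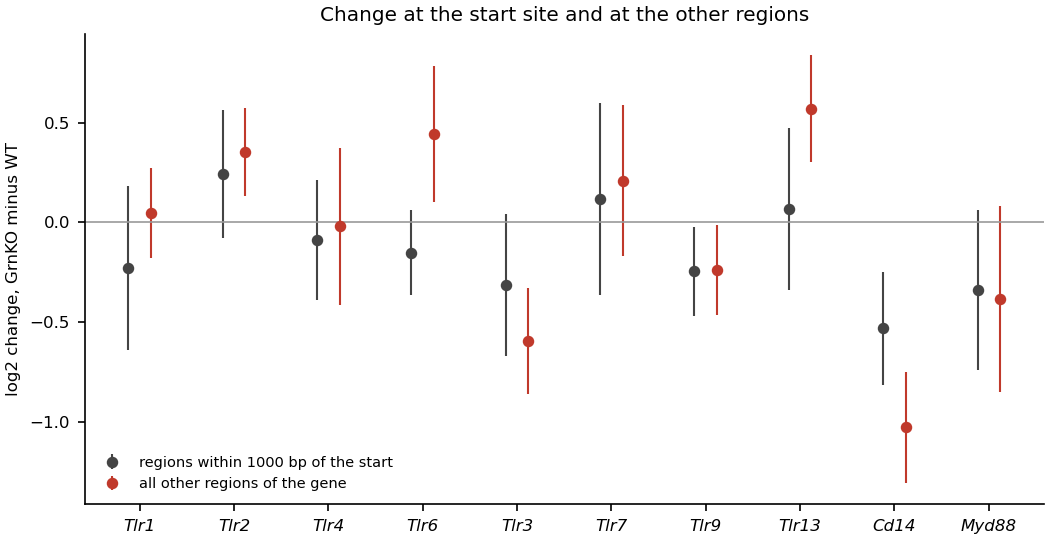
Log2 change (GrnKO minus WT) of H3K27ac summed over the regions within 1000 bp of the start (grey) and over all other regions of the gene (red), with 95% intervals, for each member. At Cd14 both sums lie below 0 (-0.53 and -1.03), at Tlr13 the distal sum (0.57) lies above the start sum (0.066), and the intervals of the 2 sums overlap at 9 members, all but Tlr6.

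In the input libraries, background was low at most members. Of the member-region input values 67.6% were 0, and the input summed over all member regions was 377 to 543 scaled tags against 11917 to 14584 in H3K27ac before TMM. The exceptions were Tlr4 in WT input 1, with 294 scaled tags against 506 in the H3K27ac library of that pool, and Tlr2 in GrnKO input 2, with 218. No input region or gene sum differed by genotype after adjustment (limma, 0 of 3052 regions and 0 of 8111 sums over the table, 0.00% of each, with 481 and 156, or 15.8% and 1.92%, at an unadjusted p under 0.05). Of the members 3 regions and 9 sums could be tested in the inputs, and 1 sum had an unadjusted p under 0.05. With the input of each pool subtracted, the changes were 0.24 at Tlr2, -0.64 at Tlr3, 0.48 at Tlr13 and -0.80 at Cd14, and 0 member genes and 0 member regions passed. In that fit 167 of 80728 regions passed over the whole table and 0 of 15380 genes did, with 2658 genes at an unadjusted p under 0.05.

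The other genes of the pathway were taken from 6 lists. Over all lists 70 of 74 genes could be tested, and 6 were higher (8.57%, near the 8.59% of all genes) and 12 lower (17.1%, against 5.88%), with a median log2 change of -0.073. With the authors' scaling 6 were higher, of which 4 were also higher after TMM and 2, Ripk1 and Ccl4, were not, and 0 were lower, where 10.6% and 1.08% of all genes were. All 12 lower calls also passed with DESeq2 size factors. Without WT replicate 1 the counts were 8 and 12.

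Of the other Toll-like receptors 0 of 4 were higher and 2 lower: Tlr5, the flagellin receptor (-0.74), and Tlr12, a receptor for a parasite protein (-0.68). Among accessory and trafficking proteins 0 of 9 were higher and 3 lower. These were Hsp90b1, the chaperone that Toll-like receptors need for folding (-0.66), and Ly86 (-0.25) and Cd180 (-0.23), which form a complex of their own that resembles the Tlr4 receptor. Of 20 adaptors and kinases 0 were higher and 4 lower, among them Tab2 (-0.70), Map3k7 (-0.57), which encodes the kinase TAK1 that Tab2 binds, and Tbk1 (-0.47), a kinase upstream of interferon genes. Signs of all these held with the authors' scaling, while for Ly86 and Cd180 the change was then -0.026 and -0.0021.

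Of 11 transcription factors 1 was higher, the AP-1 subunit Jun (0.35), and 0 were lower. Of 13 negative regulators 2 were higher, Tnip1 (0.62), a binder of the ubiquitin-editing enzyme A20, and the RNase gene Zc3h12a (0.35), and 1 was lower, the deubiquitinase gene Cyld (-0.59). Without WT replicate 1 the Cyld call was lost (limma adjusted p = 0.0925). Of 13 genes that these receptors induce, 3 were higher and 2 lower. The cytokine gene Tnf rose by 0.99 and the chemokine genes Ccl3 and Ccl2 by 0.55 and 0.54, and Il6 and the adhesion gene Icam1 fell by 0.53 and 0.35. Tnf, Ccl3, Ccl2 and Tnip1 also passed with the authors' scaling (limma adjusted p = 1.2e-05, 0.0123, 0.0152 and 0.00677), and Jun and Zc3h12a did not (0.185 and 0.142), although their log2 changes there were 0.58 and 0.58, against 0.35 and 0.35 after TMM. The induced genes thus did not move one way, and their median was -0.15.

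**Figure D5:**
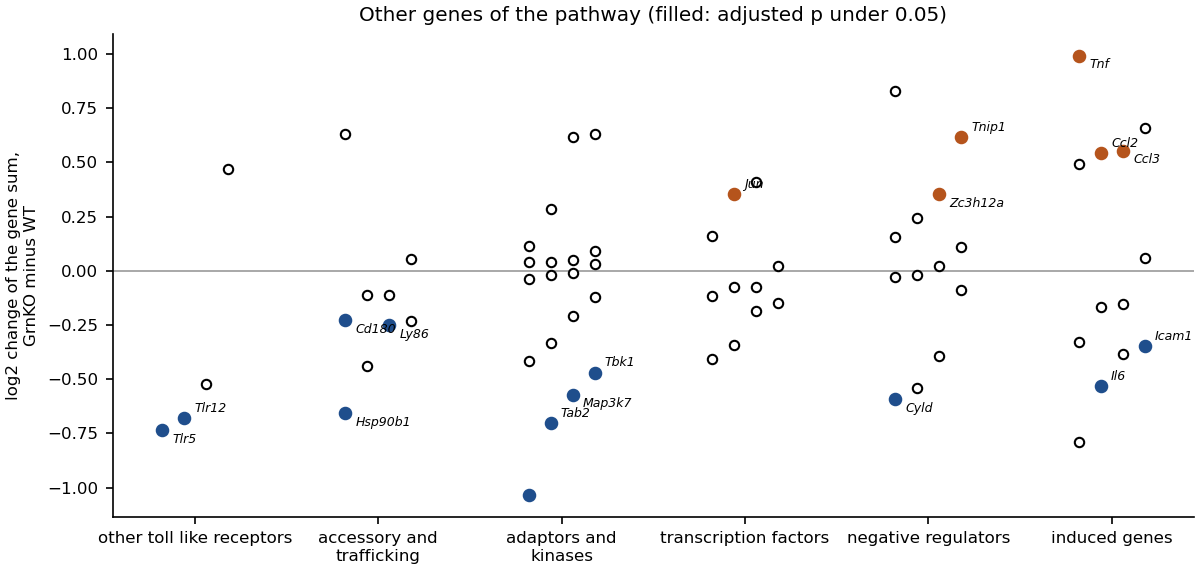
Log2 change (GrnKO minus WT) of summed H3K27ac for the other genes of the pathway, 1 point per tested gene in 6 lists, filled orange (higher) or blue (lower) past the adjusted threshold, with names for at most 3 genes per list and direction. Filled points are 6 above and 12 below 0, with Tnf highest at 0.99.

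The genes whose profile over the 4 H3K27ac libraries was nearest to that of Cd14 (Euclidean distance of centred log2 sums) were Naa10 (distance 0.0385; not called, limma adjusted p = 0.254), Mir378d (0.0529) and 2810029C07Rik (0.0535). Mir378d went from 2150.1 and 1892 scaled tags in WT to 1141 and 1225 in GrnKO.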

How the data were processed

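H3K27ac ChIP-seq and input libraries were analysed from 1 deposited table of 129304 regions. The authors scaled the signal of each region to 10000000 tags per library, per the file headers. Bowtie2, HOMER, DESeq2 and build mm10 are named in the submitters' processing notes without their roles. The start sites that the table implies equal those of RefSeq GRCm38.p6 for 6 members and differ by 48 bp at Tlr6. Tlr4, Tlr7 and Cd14 were not in the promoter table. Region annotations are the table's own.

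Whole read ends (2 per tag) were recovered for 100% of values, within 0.1 ends. Regions and per-gene sums with at least 10 tags (filterByExpr) were scaled by TMM (edgeR 4.0.16), and log2(value + 1) was tested with limma 3.58.1 (trend) in R 4.3.3, genotype as the only term, with Benjamini-Hochberg adjustment over the table. Log2 changes are on that scale, which understates changes of low regions. The fits were also run on simulated data, and no result given here rests on that run. Sums count tags in overlapping regions more than once. Alternatives were the authors' scaling, DESeq2 1.42.0 (size factors and test), edgeR's quasi-likelihood test, a pseudocount of 5, no filter, non-overlapping regions, regions within 50000 bp, input subtraction, other promoter windows, a replicate block and leaving out each library, where the lone library is assumed to vary like the other genotype. Libraries of 1 genotype were not copies of each other (chi-square per degree of freedom 10.7 and 7.06). The p-values rest on the spread between 2 pools per genotype, which limma moderates toward a trend fitted over all tested features. A p-value thus reflects the spread of a gene's or region's own pools only in part. The tag sum over the listed regions, as a percentage of the library total, also counts overlaps more than once. It was 8.91 percentage points higher in GrnKO (exact permutation test, two-sided, p = 0.333, the smallest that 2 against 2 allow). That difference was 1.93 points without WT replicate 1, 15.9 without WT replicate 2 and 2.44 over regions that overlap no other. Genome sequence beyond the promoters was not used here.

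The members, the gene lists and the naming rule were chosen with earlier results of these data known. Named are all members, with their start regions, called regions and strongest region, at most 3 pathway genes per list and direction by p, and the 3 nearest profiles to the member with the smallest p.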

Additional observations from a re-analysis of the deposited data

How the results depend on the processing

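Of 472 values under alternatives, 367 kept their direction and call or moved little, 65 became weaker, 3 stronger, 19 moved and 18 changed sign; no called value changed sign. The cause was not tested unless the setting itself shows it. With the authors' scaling the sums of Tlr2, Tlr3 and Cd14 changed by 0.56, -0.28 and -0.56, with 1 member gene higher, 0 lower and 3 regions lower, and Tlr1 and Tlr4 changed by 0.20 and 0.16. With input subtracted, Tlr2, Tlr3, Tlr13 and Cd14 changed by 0.24, -0.64, 0.48 and -0.80 and Tlr4 by 0.36, with 0 genes and 0 regions called in either direction. Non-overlapping regions gave Tlr2 0.29, Tlr13 0.32 and Tlr1 0.022, with 0 genes higher, and DESeq2 gave Tlr1 0.012. A start window of 2000 bp gave start minus distal differences of 0.098 at Tlr4 and 0.072 at Tlr7.

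With the replicate number as a block, Tlr9 changed by -0.24 (limma adjusted p = 0.0383) and 15 member regions were higher. No other member gene call changed. Calls rose over the table too: 7403 of 80728 regions were higher, against 5488 in the main fit. Of 15380 genes 2861 were called in either direction, against 2225. The labels do not say that a number pairs libraries, and the correlation of deviations of same-numbered libraries was 0.034 over regions, although Xist and Y-linked signal followed the number in both genotypes.

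Leaving out 1 library gave ranges of -0.081 to 0.038 (Tlr1), 0.28 to 0.38 (Tlr2), -0.16 to 0.031 (Tlr4), -0.066 to 0.20 (Tlr6), -0.55 to -0.46 (Tlr3), -0.092 to 0.50 (Tlr7), -0.30 to -0.18 (Tlr9), 0.38 to 0.56 (Tlr13), -0.84 to -0.73 (Cd14) and -0.42 to -0.30 (Myd88). Member genes higher ran from 0 to 3 and lower from 1 to 3, and member regions higher from 0 to 21 and lower from 1 to 15. Start minus distal differences ran from -0.66 to 0.11 at Tlr1, -0.082 to 0.072 at Tlr9 and -0.10 to 0.20 at Myd88. Shallow inputs limit the subtraction: 43.1% to 91.3% of all regions held 0 tags in an input.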
